A study of Mus musculus with 15 samples.

Results

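Overexpression of ATF4 was set directly against overexpression of DDIT3 in cardiomyocytes, the muscle cells of the mouse heart. The comparison took 10 of the 15 libraries of the series, 5 for each factor, chosen by the vector named in their labels. Every animal was a Rosa-Cas9GFP mouse, so that Cas9 and GFP at the Rosa locus were shared by all groups. Each had received an adeno-associated virus (AAV), a vehicle that carries a gene into living cells, on postnatal day 1. The vector was AAV-ATF4-2A-GFP in the ATF4 group, AAV-DDIT3-2A-GFP in the DDIT3 group and AAV-GFP in 5 further libraries, which serve here only as a reference level. Hearts were taken from animals 4 weeks old and dissociated by Langendorff perfusion, in which enzyme flows through the coronary vessels, and cardiomyocytes were sorted by FACS before polyA RNA was sequenced. The promoter that drives the vectors and the number of animals behind a library are not given in the sources used here.

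ATF4 and DDIT3 (also called CHOP) are both bZIP transcription factors, proteins that bind DNA as pairs held together by a leucine zipper. ATF4 is the main effector of the integrated stress response: when stress kinases phosphorylate the translation factor eIF2alpha, most protein synthesis slows while ATF4 is translated, and ATF4 then switches on genes of amino acid synthesis, amino acid import and tRNA charging. It does so largely as a partner of C/EBP proteins at C/EBP-ATF response elements (CARE). The Ddit3 gene is itself a known target of ATF4, and its product, a C/EBP family member, is best known for promoting cell death when endoplasmic reticulum (ER) stress lasts. The direct comparison asks at which transcripts the 2 factors, each raised alone, left heart muscle cells at different levels.

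Each vector gene was high in its own group. Values are CPM, the count of a gene as a share of its library's total with TMM scaling, printed to 3 significant digits with libraries in the order 1 to 5, and log2 fold changes set ATF4 over DDIT3, each ± SE. Atf4 (chromosome 15, 80255184 to 80257541, mm10) stood at 398, 537, 351, 359 and 352 CPM in the ATF4 libraries and at 73, 66.1, 101, 48.2 and 43.6 CPM in the DDIT3 libraries (2.59 ± 0.21, adjusted p from edgeR = 2.44e-08). Ddit3 stood at 21.7, 36.8, 38.4, 25.9 and 24.4 CPM in the ATF4 group and at 1070, 675, 970, 837 and 663 CPM in the DDIT3 group (-4.84 ± 0.19, adjusted p = 6.75e-13). No library of one group reached the range of the other for either gene. The GFP means were 71.1 ± 12.1 CPM for Atf4 and 15.6 ± 1.28 CPM for Ddit3, so that the DDIT3 group held Atf4 near its reference level while the ATF4 group held Ddit3 above it (0.91 ± 0.17 against GFP, adjusted p = 0.00061). Per kilobase of gene length, the level reached by the overexpressed Atf4 was 231.5 CPM and that reached by the overexpressed Ddit3 was 968.2 CPM. The reads of a vector and of the animal's own gene are counted together, and messenger level does not give protein level.

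Library totals ran from 6217744 to 7514376 counts in the ATF4 group and from 7268663 to 8317249 in the DDIT3 group. In a principal component analysis of the 10 libraries the groups parted on the first component (61% of the variance). On the second (14.9%) the libraries numbered 2 of both groups scored highest (45.2 for ATF4 and 32.8 for DDIT3). These are the 1 library of each group with more counts of Xist than of Y-linked genes (438 against 1 in ATF4 2, 142 against 0 in DDIT3 2). Cardiomyocyte markers, a list of 10 genes named as ventricular, summed to 93690 to 105300 CPM in the ATF4 group and 116400 to 127600 CPM in the DDIT3 group. Myh6, which is not confined to the ventricle, alone gave 38600 to 57900 CPM in the ATF4 group. Endothelial markers summed to 1397 to 2032 CPM over 14 genes in the ATF4 group against 600 to 1046 CPM in the DDIT3 group, with 603.9 to 1231 CPM in GFP. In sums over a sorted population, fewer cells of a type and less RNA per cell cannot be told apart.

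Of 11814 genes tested, 3997 (33.8%) differed between the 2 overexpression groups at an adjusted p below 0.05, which is what "called" means from here on. Of these, 2106 (17.8% of genes tested) were higher and 1891 (16%) lower in the ATF4 group. Scaling by total counts alone, without TMM factors, gave 2711 higher and 1304 lower, since it moved the median of all genes by 0.112 on the log2 scale. The number called was 3649 without both libraries numbered 2, and 5228 when the replicate number entered the fit as a block. The direct comparison thus held about as many calls as ATF4 against GFP (3801, 32.2%), while DDIT3 against GFP held 102 (0.863%). That last count was 322 with the block, 228 with DESeq2, and 55 without DDIT3 replicate 1. These 3 comparisons share libraries and are not independent of each other. Counts of members called in a gene list are to be read against the shares of all genes tested, 17.8% higher and 16% lower. Counts given under the replicate block are instead to be read against its 2628 higher and 2600 lower of 11814 genes.

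The differences were lopsided in size. At 2-fold or more, 978 genes were called higher (8.28%) and 332 lower (2.81%) in the ATF4 group. At 8-fold or more there were 161 higher and 12 lower, and at 32-fold or more 75 higher and 0 lower. The ATF4 libraries all lay above the DDIT3 libraries for 1452 genes (12.3%) and all below for 1220 (10.3%). No count in any DDIT3 library was found for 11 of the genes tested, all of them called, while 0 were without a count in the ATF4 group. For ATF4 against GFP, 8.88% of genes were called at 2-fold or more, 6.04% higher and 2.84% lower.

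**Figure D1:**
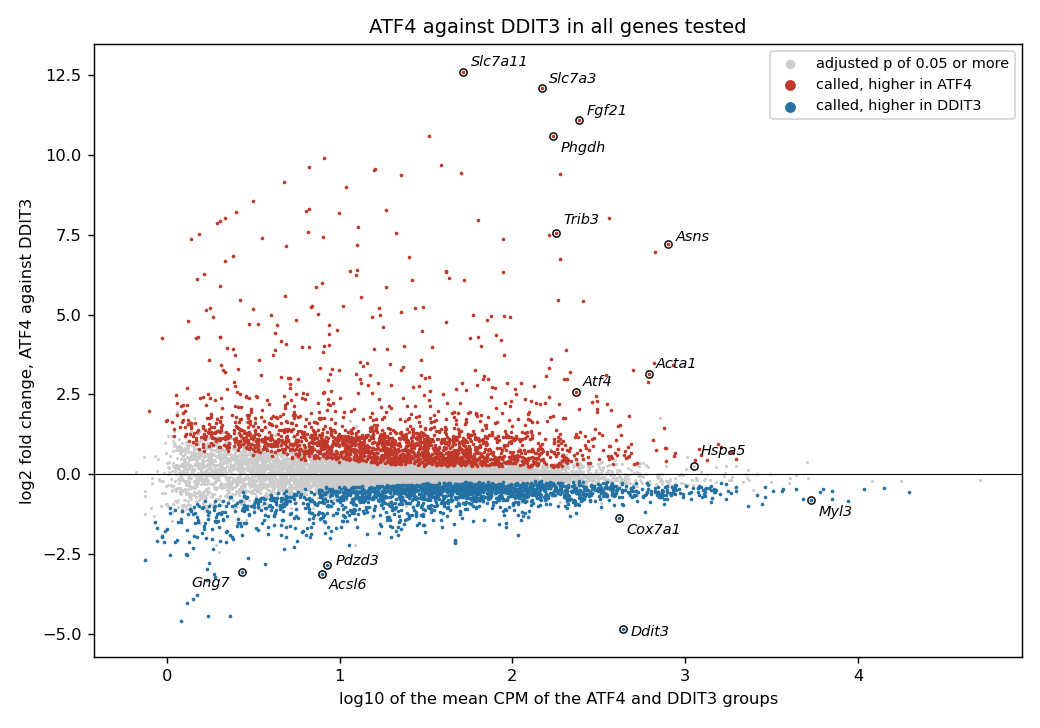
Log2 fold change of ATF4 against DDIT3 (vertical axis) against the log10 of the mean CPM of the 2 groups (horizontal axis), 1 point per gene tested; red and blue points were called higher in ATF4 or in DDIT3, grey points were not called. Large differences lie almost all on the ATF4 side, up to Slc7a11, while Ddit3 is the deepest point among abundant genes on the DDIT3 side.

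The steepest differences included genes that take up or make amino acids. Slc7a11 (chromosome 3, 49892526 to 50443614), the cystine importer that feeds glutathione synthesis, stood at 105, 83.5, 79.1, 113 and 139 CPM in the ATF4 group and had no count in any DDIT3 library, so that it was at least 1359-fold higher when the DDIT3 group is set to its floor of 3 counts. Slc7a3, an importer of arginine and lysine, stood at 304, 254, 309, 293 and 327 CPM against 2 counts in all DDIT3 libraries together, a ratio of 5808 (95% counting interval 1607 to 47960). Phgdh, which opens the serine pathway, stood at 340, 279, 381, 371 and 356 CPM against 0.121, 0.139, 0.482, 0.13 and 0.135 CPM (10.60 ± 0.28, adjusted p = 4.66e-15). These transcripts were thus close to undetected with DDIT3 and among the clearly expressed genes with ATF4, in every library.

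Bcat1, the cytosolic enzyme that moves amino groups to and from branched-chain amino acids, stood at 122, 59.6, 95.2, 90.9 and 133 CPM against 0.121, 0, 0.361, 0 and 0.135 CPM (9.43 ± 0.40). Fgf21 (chromosome 7, 45613886 to 45615490), a hormone released by stressed liver and muscle, stood at 352, 360, 540, 590 and 584 CPM against 0.121, 0, 0.361, 0.52 and 0 CPM (11.09 ± 0.36, adjusted p = 4.62e-14). Adm2, a peptide hormone of the calcitonin family, stood at 30.8, 28.8, 38.6, 32.6 and 29.2 CPM against 1 count in the DDIT3 group, a ratio of 1245 (223.1 to 49230). Both hormones were separated by far more than the spread between libraries.

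Others of the 12 steepest chosen for naming have no textbook place in the amino acid response. P2rx3, an ATP-gated ion channel of sensory neurons, stood at 365, 245, 487, 362 and 420 CPM against 0.242, 0.554, 1.2, 0.52 and 0.135 CPM (9.40 ± 0.33, adjusted p = 1.82e-13). Gjb2, the gap junction protein connexin 26, stood at 33.2, 29.7, 24.7, 25.7 and 44.1 CPM against 1 count in the DDIT3 group. Cntnap3, a cell adhesion protein of the neurexin superfamily, stood at 83.5, 49.9, 44.7, 67.3 and 84.2 CPM, also against 1 count. Dhrs9, a short-chain dehydrogenase that acts on retinoids, had 3 counts in the DDIT3 group and 80.6, 73.5, 40, 80.2 and 114 CPM in the ATF4 group, a ratio of 1013 (346.3 to 4915). Mei4, a protein of meiotic recombination, and Slc4a10, a bicarbonate transporter, had no count with DDIT3 and were at least 209.2-fold and 169.4-fold higher with ATF4. None of these 12 had a mean above 1 CPM in either the DDIT3 or the GFP group.

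Because CARE sequences are where ATF4 binds with C/EBP partners, the promoters of the genes tested were searched for the CARE core, TGATGNAA, on both strands, with N any base. Promoters were those of RefSeq (GRCm38.p6), from 250 bases before to 50 bases after a gene's start, and 8493 of the 11814 genes had one. A gene was counted as holding the core if any of its promoters did. Among genes at least 8-fold higher in the ATF4 group, 25 of the 119 with a promoter held it (21%). The share was 4.49% among genes 2-fold to 8-fold higher, 3.80% among those less than 2-fold higher, 2.20% among genes not called, 2.22% among genes less than 2-fold lower and 3.10% among those at least 2-fold lower. Over all genes tested that had a promoter it was 2.8% (238 of 8493), and over all 32851 promoters of the table, counted by promoter, 3.97%. The narrower form TGATGCAA, a subset of these matches, was held by 10.9% of genes of the first class and 0.789% of all genes tested, among those with a promoter. TGACGTCA, the CRE palindrome of the wider CREB and ATF family, was in 2.52% and 3.61%. TGACGTCA and the CARE core are different letters and neither holds the other. A match describes letters, not a bound site.

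**Figure D2:**
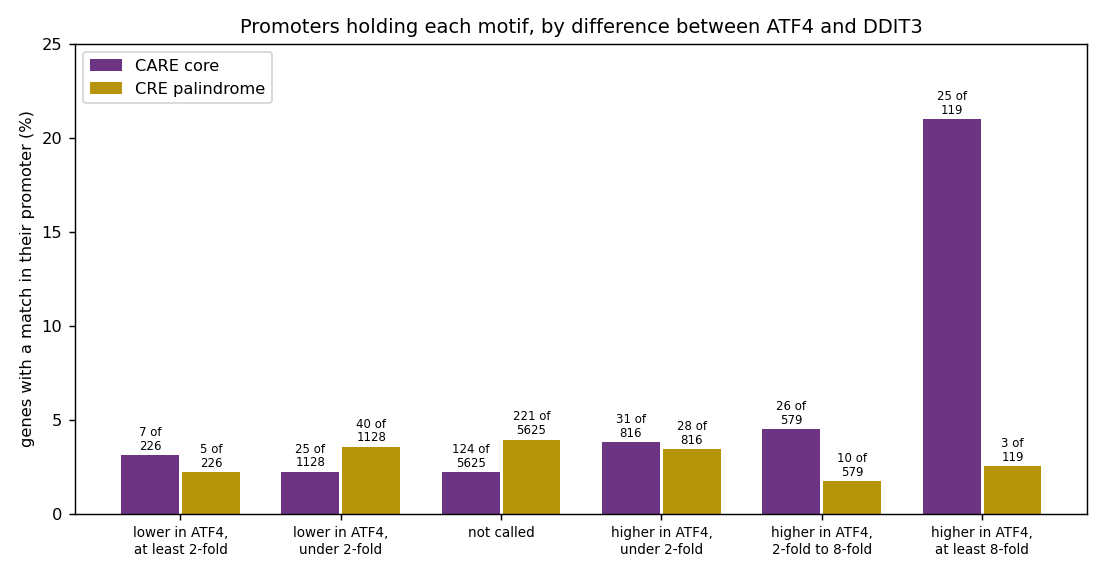
Share of genes with a promoter that hold the CARE core or the CRE palindrome in any of their promoters (vertical axis, %), in 6 classes of genes ordered by their difference between ATF4 and DDIT3 (horizontal axis). Above each bar stands the number of genes holding a match over the number of genes searched. The CARE core stands at 21% in the class at least 8-fold higher in ATF4 and between 2.20% and 4.49% in the other 5, while the CRE palindrome stays below 4% in all 6.

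Of the 215 genes chosen for naming, 169 had a promoter in the table and 14 held the core. Stretches of 10 of them show it in genes that turn the comparison, with the core in capitals, 5′ to 3′ on the gene's own strand; TTGCATCA, TTTCATCA and TTACATCA are the core read on the other strand. Slc7a11 is shown for its 2 facing copies, Fgf21, Nupr1, Chac1 and Slc1a4 for the C form, Asns, Gars and Trib3 for other forms, Herpud1 as an ER gene, and Atf3 as one that holds the core and was not called.
Slc7a11: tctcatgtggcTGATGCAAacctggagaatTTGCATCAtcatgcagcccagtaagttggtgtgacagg
Fgf21: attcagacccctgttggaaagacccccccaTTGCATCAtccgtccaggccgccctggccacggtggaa
Nupr1: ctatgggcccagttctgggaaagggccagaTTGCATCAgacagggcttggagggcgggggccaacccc
Trib3: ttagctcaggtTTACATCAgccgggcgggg
Asns: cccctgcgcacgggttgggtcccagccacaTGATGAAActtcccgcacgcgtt
Slc1a4: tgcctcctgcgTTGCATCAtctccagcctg
Chac1: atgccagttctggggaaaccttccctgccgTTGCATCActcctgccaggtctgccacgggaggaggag
Gars: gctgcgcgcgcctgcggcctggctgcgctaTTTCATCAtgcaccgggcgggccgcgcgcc
Herpud1: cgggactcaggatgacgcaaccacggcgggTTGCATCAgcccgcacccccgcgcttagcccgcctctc
Atf3: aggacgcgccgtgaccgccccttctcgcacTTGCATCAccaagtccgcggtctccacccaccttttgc

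These stretches lie on GRCm38.p6 at chr3:50443623-50443690 (- strand) for Slc7a11, chr7:45615592-45615659 (- strand) for Fgf21, chr7:126625543-126625610 (- strand) for Nupr1, chr2:152344028-152344057 (- strand) for Trib3 and chr6:7693210-7693262 (- strand) for Asns. The others lie at chr11:20332699-20332728 (- strand) for Slc1a4, chr2:119351019-119351086 (+ strand) for Chac1, chr6:55037941-55038000 (+ strand) for Gars, chr8:94386287-94386354 (+ strand) for Herpud1 and chr1:191183406-191183473 (- strand) for Atf3. The core begins 47 and 66 bases before the start of Slc7a11, 139 before that of Fgf21, 110 before that of Nupr1, 193 before that of Chac1, 112 before that of Herpud1 and 23 before that of Asns. In Slc1a4 and Gars it begins 4 and 30 bases before the start, and in Trib3 it lies just after the start. Of these 10, the 9 other than Atf3 were called higher in the ATF4 group, from 1.51 in Herpud1 upward. The 4 named genes that hold the core and are not printed differed less or the other way. Tnnt1, slow skeletal troponin T, was called lower (-0.88 ± 0.16, adjusted p = 0.000439), while Hcn4 (0.65 ± 0.24), Ctsl (0.83 ± 0.12) and Ifitm3 (0.91 ± 0.25) were called higher, Hcn4 in 8 of 24 alternatives. Atf3, a bZIP factor that many stresses induce, stood at 49, 315, 40.3, 103 and 60.1 CPM in the ATF4 group and 142, 153, 142, 60 and 15.5 CPM in the DDIT3 group (0.14 ± 0.67, adjusted p = 0.894). Its groups overlapped widely, and its sign turned with the replicate block and without ATF4 replicate 2, DDIT3 replicate 4 or DDIT3 replicate 5.

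Most genes of amino acid synthesis stood higher with ATF4. Of 20 tested genes of serine, one-carbon and amino acid synthesis, 14 were called higher and 1 lower, with a median log2 fold change of 3.81 beside 0.000333 over all genes tested. Asns, asparagine synthetase, stood at 1640, 1330, 1600, 1700 and 1680 CPM in the ATF4 group and 13.1, 7.76, 11.4, 13.3 and 8.21 CPM in the DDIT3 group (7.20 ± 0.17, adjusted p = 1.18e-15). It had the largest rise in CPM of the genes called, with provisional, date-like and sex-linked symbols passed over. Mthfd2, of the mitochondrial folate cycle, stood at 762, 519, 790, 807 and 720 CPM against 3.63, 1.11, 3.13, 3.77 and 2.02 CPM (8.02 ± 0.24), and both genes were separated in every library. Aldh18a1, the entry enzyme of proline synthesis, had the lowest p of the whole comparison (5.42 ± 0.11, adjusted p = 2.85e-16), from 553, 418, 506, 501 and 534 CPM against 11.8, 11.4, 12.9, 11.6 and 10.9 CPM. The single member called lower was Mthfd2l, a near relative of Mthfd2, at 2.86, 4.54, 3.76, 4.39 and 3.81 CPM against 7.01, 5.4, 5.06, 7.02 and 6.86 CPM (-0.70 ± 0.20, adjusted p = 0.0108). The 2 sister enzymes thus lay on opposite sides, each with groups that did not overlap.

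Amino acid importers were higher with ATF4 in most members. Of 21 amino acid transporters 13 were called higher and 1 lower (median 1.12). Slc7a5, the large neutral amino acid importer, stood at 1550, 1340, 1300, 1070 and 1350 CPM against 12.5, 10.9, 7.71, 9.49 and 12 CPM (6.97 ± 0.22, adjusted p = 2.49e-14). Slc6a9, a glycine transporter, stood at 215, 164, 168, 160 and 173 CPM against 1.57, 0.97, 0.964, 1.17 and 0.538 CPM (7.36 ± 0.27), and Slc1a4, a carrier of serine and alanine, was higher by 6.32 ± 0.20. Slc38a4, a carrier of neutral amino acids, was the member called lower, at 38.2, 23.7, 33, 39.4 and 45.4 CPM against 70.6, 56.4, 64.6, 80.6 and 63.2 CPM with a GFP mean of 47.6 ± 3.9 CPM (-0.90 ± 0.14, adjusted p = 0.000107). Slc36a2, a proton-coupled carrier of glycine and proline outside that list, was lower by a larger fold, at 11.1, 19.8, 19.3, 17.2 and 22.7 CPM against 75.3, 84.5, 82.4, 69.9 and 65.3 CPM (-2.07 ± 0.15, adjusted p = 7.88e-09). In both, every ATF4 library lay below every DDIT3 library.

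The enzymes that charge tRNAs differed between the cytosolic and the mitochondrial list. Of 20 cytosolic aminoacyl-tRNA synthetases 15 were called higher and 0 lower (median 2.03). Gars, counted here as cytosolic though it also serves mitochondria, stood at 1670, 1310, 1530, 1630 and 1630 CPM against 143, 129, 152, 144 and 154 CPM (3.43 ± 0.10, adjusted p = 1.37e-14). Nars stood at 1250, 1090, 1070, 1300 and 1320 CPM against 119, 94.2, 101, 114 and 106 CPM (3.50 ± 0.10). Cars was higher by 3.62 ± 0.10 and Sars by 2.27 ± 0.08. Of 17 synthetases of the mitochondrial list, which leaves out Gars, 0 were called higher and 8 lower (median -0.274), or 4 lower when scaled by total counts. Without ATF4 replicate 2 or DDIT3 replicate 5, 1 was called higher. Cars2, the mitochondrial counterpart of Cars, stood at 31.7, 23.1, 48.1, 50.5 and 41.3 CPM against 65.5, 55.1, 64.2, 66.4 and 66.6 CPM (-0.71 ± 0.17, adjusted p = 0.00325), and Hars2 was lower at -0.46 ± 0.11. Within the cysteine pair, the cytosolic enzyme was therefore higher and the mitochondrial one lower in all 5 ATF4 libraries.

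**Figure D3:**
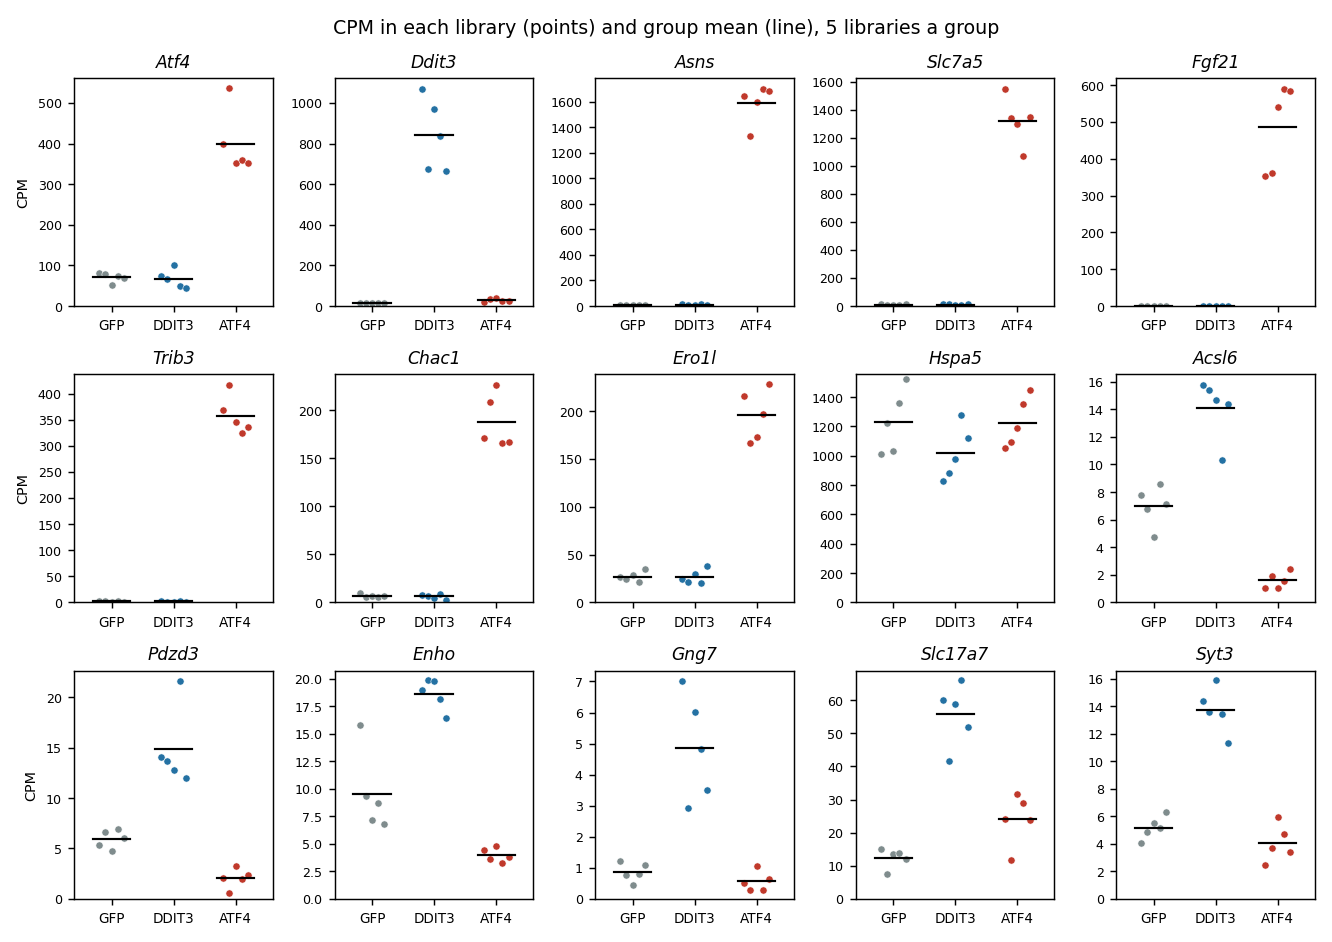
CPM of 15 genes (vertical axes, linear from 0) in the 5 libraries of the GFP, DDIT3 and ATF4 groups (horizontal axes), 1 point per library and a line at the group mean. Asns, Slc7a5, Fgf21 and Trib3 are near 0 in all DDIT3 and GFP libraries, Hspa5 overlaps across the 3 groups, and Gng7, Slc17a7 and Syt3 are highest in the DDIT3 libraries.

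The bZIP family, to which both factors belong, differed in about the share of all genes tested. Of 35 members other than the vector genes, 10 were called higher and 2 lower (median 0.0832). Atf5, a close relative of ATF4 that acts in the same response, stood at 52.5, 49.8, 72.4, 60.7 and 49.7 CPM against 1.57, 3.32, 3.25, 2.34 and 2.29 CPM (4.47 ± 0.23, adjusted p = 3.33e-11). Cebpg, a C/EBP protein that pairs with ATF4, was higher by 1.96 ± 0.13, and Xbp1, a factor activated by ER stress, by 1.12 ± 0.14. Atf6, the ER membrane sensor, stood at 432, 380, 257, 366 and 417 CPM against 158, 182, 142, 164 and 243 CPM (1.06 ± 0.19, adjusted p = 0.000337). The 2 called lower were Hlf (8.45, 9.22, 12.8, 11.5 and 10 CPM against 34.2, 30.1, 33.4, 29.9 and 36.9 CPM, -1.66 ± 0.16) and Tef (-0.59 ± 0.19, adjusted p = 0.0223), both bZIP factors of the circadian output. Tef overlapped between groups and lost its call when ATF4 replicate 4, DDIT3 replicate 3 or DDIT3 replicate 5 was left out, while the groups of Hlf were apart.

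Genes of translation initiation and its control were higher with ATF4 in about as many members as not. Of 23 genes of the eIF2alpha kinases, phosphatases and initiation factors, 11 were called higher and 0 lower (median 0.275), or 2 lower with the block and 1 without ATF4 replicate 2, 3 or 4. Eif3c, a subunit of the scaffold that loads the ribosome, stood at 522, 519, 438, 464 and 500 CPM against 134, 135, 126, 116 and 119 CPM (1.96 ± 0.10, adjusted p = 2.32e-11). Eif2s2, the beta subunit of eIF2, was higher by 1.81 ± 0.14 and Eif4ebp1, which holds back cap-dependent initiation, by 1.26 ± 0.18. Ppp1r15b, the constant partner of the eIF2alpha phosphatase, was higher by 1.03 ± 0.12. Its stress-induced sister Ppp1r15a (GADD34), reported as a target of both factors, stood at 115, 139, 78.2, 89.4 and 95.1 CPM against 94.4, 99.3, 77.5, 47.4 and 36.7 CPM (0.54 ± 0.29, adjusted p = 0.16, or 0.0478 with the replicate block).

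Genes reported as targets of CHOP, together with cell death genes, were not higher with DDIT3. Of 17 tested, 8 were called higher in the ATF4 group and 0 higher in the DDIT3 group (median 0.757), or 1 without ATF4 replicate 3. Trib3, a pseudokinase named as a CHOP target, stood at 368, 416, 346, 324 and 335 CPM with ATF4 and 2.18, 0.831, 1.69, 3.12 and 1.61 CPM with DDIT3 (7.55 ± 0.23, adjusted p = 2.33e-14). Chac1, which breaks down glutathione, stood at 171, 208, 226, 166 and 167 CPM against 7.86, 6.79, 4.58, 9.23 and 2.29 CPM (4.92 ± 0.26, adjusted p = 7.26e-11). The GFP libraries, at 2.41, 2.21, 1.38, 2.24 and 0.947 CPM for Trib3 and 10.3, 5.99, 6.58, 5.65 and 6.79 CPM for Chac1, overlapped the DDIT3 libraries in both genes.

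Ero1l, the oxidase that drives disulfide formation in the ER, stood at 216, 167, 173, 197 and 228 CPM against 24.8, 21.3, 29.6, 20.7 and 38.2 CPM (2.86 ± 0.17), with a GFP mean of 27.1 ± 5.22 CPM. Gadd45a, a growth arrest gene, stood at 94.9, 72.6, 117, 93.7 and 71 CPM against 9.55, 11.9, 18.9, 12.1 and 9.55 CPM (2.85 ± 0.20). Bcl2, the survival gene that CHOP is reported to repress, stood at 4.23, 4.16, 6.39, 6.11 and 2.69 CPM with DDIT3 and 20.2, 20.9, 15.6, 20.6 and 15.5 CPM with ATF4 (1.97 ± 0.22, adjusted p = 1.99e-06). Its difference from GFP in the DDIT3 group was -0.17 ± 0.23 (adjusted p = 0.899). Tnfrsf10b (death receptor 5) stood at 2.21, 4.1, 1.88, 2.41 and 3.3 CPM with ATF4 and 1.21, 1.39, 1.2, 1.69 and 0.807 CPM with DDIT3 (1.13 ± 0.34, adjusted p = 0.0161), and was not called without both libraries numbered 2. Bcl2l11 (BIM) spread from 8.75 to 77.2 CPM within the DDIT3 group alone (-0.27 ± 0.55, adjusted p = 0.74). Its ATF4 libraries, from 17 to 46.2 CPM, lay inside that range, and its sign turned without DDIT3 replicate 2.

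The ER list was higher with ATF4 in part, without its most abundant chaperones. Of 30 chaperones, folding enzymes and degradation genes of the ER, 12 were called higher in the ATF4 group and 0 lower (median 0.324). Herpud1, of the degradation complex, stood at 619, 593, 642, 596 and 580 CPM against 232, 285, 189, 158 and 196 CPM (1.51 ± 0.13, adjusted p = 9.44e-08). Dnajb9, a co-chaperone, was higher by 1.56 ± 0.13, the sensor kinase Ern1 (IRE1) by 1.88 ± 0.17 and the translocon subunit Sec61a1 by 0.92 ± 0.10. Hspa5 (BiP), the central chaperone, stood at 1050, 1090, 1190, 1350 and 1450 CPM against 828, 880, 977, 1280 and 1120 CPM (0.27 ± 0.14, adjusted p = 0.152), with overlapping groups. Hsp90b1 (GRP94) differed by 0.25 ± 0.11 (adjusted p = 0.0966) and Calr (calreticulin) by -0.08 ± 0.12 (adjusted p = 0.619), or by 0.02 when scaled by total counts. With the replicate number as a block, Hspa5 and Hsp90b1 were called (adjusted p = 0.00837 and 0.00754) at log2 fold changes of 0.28 and 0.25, and 18 members were called higher in place of 12.

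Secreted signals of stressed cells were on the ATF4 side. Of 13 secreted stress factors 7 were called higher and 0 lower (median 0.799). Gdf15, a circulating marker of mitochondrial and ER stress, stood at 37.5, 56.2, 45, 59.7 and 66.5 CPM against 1.57, 0.97, 1.33, 2.08 and 1.08 CPM (5.21 ± 0.24, adjusted p = 5.67e-12), with a GFP mean of 0.515 ± 0.267 CPM. Stc2, a secreted glycoprotein of the unfolded protein response, was higher by 1.91 ± 0.15. Of 20 genes of growth restraint and p53 targets 8 were called higher and 2 lower (median 0.321). Nupr1, a small stress-induced chromatin protein, stood at 131, 151, 145, 123 and 78.6 CPM against 0.484, 0.277, 0.602, 0.65 and 0.404 CPM (7.96 ± 0.27), and Sesn2, a restraint of the growth kinase mTORC1, at 171, 168, 166, 154 and 156 CPM against 7.25, 9.14, 11.2, 8.84 and 7.4 CPM (4.21 ± 0.13). The 2 called lower were Perp, a desmosome gene (-0.83 ± 0.11, adjusted p = 1.85e-05), and Ccng1 (-0.58 ± 0.20, adjusted p = 0.0324), a cyclin that p53 induces. Ccng1 overlapped between groups and lost its call in 5 alternatives, among them without ATF4 replicate 1, ATF4 replicate 2 or DDIT3 replicate 5.

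The glutathione and NRF2 list, which guards against oxidants, was mostly higher with ATF4. Of 25 genes 15 were called higher and 4 lower (median 0.487). Hmox1, heme oxygenase, stood at 49, 31, 46.5, 47.5 and 47.7 CPM against 3.02, 2.91, 1.93, 3.51 and 2.42 CPM (4.002 ± 0.21, adjusted p = 4.65e-11). Srxn1, which repairs peroxiredoxins, was higher by 2.23 ± 0.16, Txnrd1, thioredoxin reductase, by 1.75 ± 0.19 and Gclm, of the first step of glutathione synthesis, by 1.04 ± 0.11. The 4 called lower began with Gpx1, a glutathione peroxidase, at 50.6, 31.9, 52.4, 75.1 and 51.1 CPM against 157, 119, 112, 128 and 113 CPM (-1.27 ± 0.17, adjusted p = 2.22e-05) with a GFP mean of 81.2 ± 13.1 CPM. Sod2, the superoxide dismutase of mitochondria, was lower at -0.53 ± 0.12, the glutathione transferase Gstm5 at -0.61 ± 0.13 and Ggct, of glutathione breakdown, at -0.58 ± 0.14.

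The nuclear genes of mitochondrial respiration were lower with ATF4 in nearly every member. Of 36 tested subunits of respiratory complex I, which takes electrons from NADH, 0 were called higher and 32 lower in the ATF4 group (median -0.617), beside 16% of all genes tested. In 26 of the 36, every ATF4 library lay below every DDIT3 library, as in 10.3% of all genes tested. Ndufv1 stood at 1080, 1150, 1240, 1220 and 1230 CPM against 1740, 1810, 1690, 1730 and 1760 CPM (-0.56 ± 0.08, adjusted p = 2.06e-05) and Ndufs1 at 757, 648, 753, 925 and 930 CPM against 1380, 1210, 1230, 1410 and 1610 CPM (-0.77 ± 0.12). Log2 fold changes over the list ran from -0.78 to 0.04, a narrow range beside the -0.70 to 10.6 of amino acid synthesis.

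Complexes II to V, which pass the electrons on and make ATP, had 32 of 38 members called lower and 2 higher (median -0.543). Sdha, of complex II, stood at 1980, 1740, 2050, 2100 and 2300 CPM against 2990, 3060, 3090, 3040 and 3710 CPM (-0.64 ± 0.10, adjusted p = 7.78e-05). Atp5b, the catalytic subunit of the ATP synthase, was lower at -0.45 ± 0.10, and Slc25a4, which exchanges ATP for ADP across the inner membrane, stood at 4170, 4360, 6080, 6260 and 5090 CPM against 8790, 9130, 8230, 9290 and 9330 CPM (-0.79 ± 0.12). Cytochrome oxidase has subunits with separate muscle and general forms, and some of these went opposite ways. Cox7a1, the heart and muscle form, stood at 168, 123, 299, 341 and 225 CPM against 622, 649, 482, 667 and 546 CPM (-1.36 ± 0.24, adjusted p = 0.000277). The 2 called higher were Cox6a1, the form of liver and most tissues, at 162, 130, 192, 180 and 155 CPM against 92.1, 77, 96.1, 120 and 105 CPM (0.74 ± 0.12, adjusted p = 0.000163), and Cox8a, the ubiquitous form, at 0.53 ± 0.11. For these 3 the groups did not overlap.

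Fuel pathways that feed the chain were lower too. The tricarboxylic acid cycle with pyruvate dehydrogenase had 15 of 20 genes called lower and 0 higher (median -0.451), with Sucla2 at -0.72 ± 0.11, Mdh2 at -0.53 ± 0.10 and Fh1 at -0.71 ± 0.11. Among 32 genes that take up and oxidise fatty acids, the main fuel of the adult heart, 19 were called lower and 0 higher (median -0.413). Acaa2, the last enzyme of the beta-oxidation cycle, stood at 791, 908, 1140, 1190 and 945 CPM against 1670, 1910, 1730, 1990 and 1760 CPM (-0.87 ± 0.11, adjusted p = 1.14e-05), and Acadm, which starts it on medium chains, at 910, 1000, 1070, 1210 and 1140 CPM against 1740, 1880, 1630, 1760 and 1930 CPM (-0.75 ± 0.09). Of 18 genes of branched-chain amino acid breakdown 8 were called lower and 1 higher (median -0.241), the lower ones led by Pccb at -0.71 ± 0.11 and Hibadh at -0.63 ± 0.10. The 1 called higher was Bcat2, the mitochondrial sister of Bcat1, at 0.29 ± 0.09 (adjusted p = 0.0159). In these 3 lists the DDIT3 medians relative to GFP were -0.0831, -0.0255 and -0.144, and those of ATF4 relative to GFP -0.564, -0.459 and -0.397.

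Glycolysis was mixed. Of 20 genes 5 were called higher and 7 lower (median -0.182). Slc2a1 (GLUT1), the glucose carrier of fetal and stressed heart, stood at 84, 53.3, 66.5, 57.7 and 76 CPM against 20.8, 28.4, 21.1, 21.2 and 32.4 CPM (1.45 ± 0.18, adjusted p = 6.8e-06). Pfkp, the platelet form of phosphofructokinase, stood at 478, 357, 408, 438 and 510 CPM against 150, 154, 147, 163 and 203 CPM (1.42 ± 0.13), while Pfkm, the muscle form, stood at 1290, 1160, 1280, 1280 and 1260 CPM against 1680, 1690, 1910, 1670 and 1820 CPM (-0.48 ± 0.08). Eno3, muscle enolase, was lower at -0.98 ± 0.16 (adjusted p = 0.000103). The paired isoforms Pfkp and Pfkm thus lay on opposite sides in every library.

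Protein folding and turnover inside mitochondria was also divided. Of 16 chaperones and proteases of mitochondria 3 were called higher and 5 lower (median -0.215, with 8 lower under the replicate block). Lonp1, the matrix protease, stood at 503, 455, 416, 451 and 487 CPM against 197, 197, 192, 200 and 206 CPM (1.22 ± 0.09, adjusted p = 3.21e-09). Hspa9, mortalin, the import chaperone, stood at 2100, 1680, 2040, 2210 and 2170 CPM against 1030, 901, 1010, 1070 and 1270 CPM (0.95 ± 0.11), and Yme1l1, an inner membrane protease, was higher by 1.07 ± 0.14. Clpp, another matrix protease, was lower at -0.56 ± 0.10 (adjusted p = 0.000458). Of 22 sterol, fatty acid and lipid droplet genes 7 were called higher and 2 lower (median 0.0652). The number lower was 1 without ATF4 replicate 1 or DDIT3 replicate 1, 0 when scaled by total counts, and 4 with DESeq2 or the block. Soat2, which esterifies cholesterol in liver and gut, stood at 49.7, 47.9, 42.9, 43.2 and 41.7 CPM against 2 counts in the DDIT3 group, a ratio of 876.3 (242.2 to 7242), and Sqle, of sterol synthesis, was higher by 1.94 ± 0.28.

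**Figure D4:**
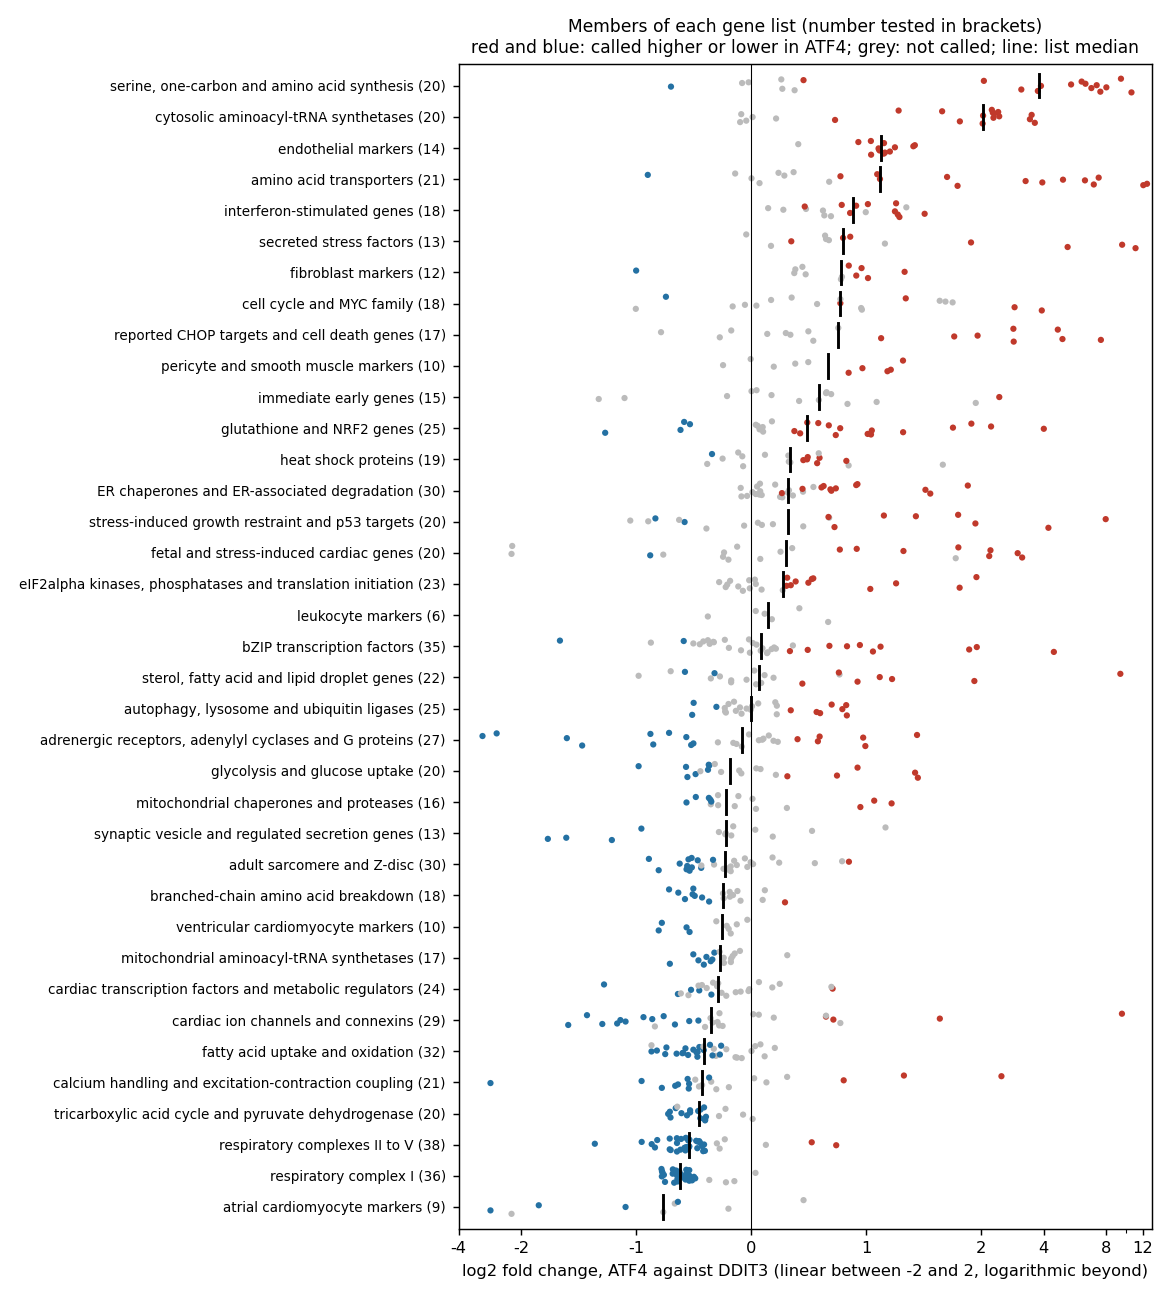
Log2 fold change of ATF4 against DDIT3 (horizontal axis, linear between -2 and 2 and logarithmic beyond) for the tested members of 37 gene lists (rows, ordered by their median, which the black line marks); red and blue points were called higher or lower in ATF4 and grey points were not called. Amino acid synthesis and cytosolic synthetases stand at the top (medians 3.81 and 2.03) and the respiratory chain at the bottom, next to the atrial markers.

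Contractile genes of adult muscle were lower in part. Of 30 adult sarcomere and Z-disc genes 12 were called lower and 1 higher (median -0.226). Myl3, the ventricular essential light chain, stood at 3150, 2880, 4840, 4660 and 3960 CPM against 6510, 6310, 6210, 8060 and 6910 CPM (-0.80 ± 0.14, adjusted p = 0.000244). Tpm1, tropomyosin, stood at 10700, 9480, 13200, 13600 and 12800 CPM against 16300, 14800, 15700, 18200 and 15900 CPM (-0.43 ± 0.12, adjusted p = 0.00835), and Tnni3, cardiac troponin I, was lower at -0.56 ± 0.11. Mb, the oxygen store myoglobin, stood at 5840, 4270, 7620, 7580 and 6030 CPM against 11600, 10600, 10400, 12400 and 10900 CPM (-0.84 ± 0.13). Flnc, the muscle filamin that marks strained Z-discs, was the member called higher, at 0.85 ± 0.20 (adjusted p = 0.00304), or 3 members with the block or total counts and 2 without ATF4 replicate 2 or DDIT3 replicate 2. Myh6, the most abundant heavy chain, was at 52100, 57900, 38600, 48700 and 42000 CPM against 52900, 53400, 56700, 48000 and 59700 CPM, groups that overlapped (-0.18 ± 0.14, adjusted p = 0.338).

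Of 21 genes of calcium handling and excitation-contraction coupling, which link the electrical beat to contraction, 9 were called lower and 3 higher (median -0.426). Atp2a2 (SERCA2), the calcium pump of the sarcoplasmic reticulum, stood at 15700, 11200, 16300, 19200 and 18000 CPM against 22200, 18600, 23500, 23500 and 29200 CPM (-0.54 ± 0.15, adjusted p = 0.0109). Its inhibitor Pln stood at 3290, 3600, 3720, 3580 and 3570 CPM against 6150, 7270, 5830, 4840 and 6310 CPM (-0.78 ± 0.10, adjusted p = 9.68e-06). Pump and inhibitor were both lower, Pln without overlap and Atp2a2 with. Cacna2d1, an accessory subunit of the L-type calcium channel, was lower at -0.95 ± 0.15, and Slc8a1, the sodium-calcium exchanger, was higher at 214, 240, 285, 206 and 205 CPM against 104, 110, 119, 140 and 187 CPM (0.80 ± 0.20, adjusted p = 0.0057). Sln, sarcolipin, stood at 0.13, 3.07, 0, 1.13 and 0.381 CPM against 22.9, 3.46, 1.08, 0.13 and 4.57 CPM (-2.81 ± 1.01, adjusted p = 0.0429), where DDIT3 replicate 1 alone was high. Its call was lost without that library and in 13 of the 22 alternatives besides.

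Of 29 cardiac ion channel and connexin genes 12 were called lower and 4 higher (median -0.353). Kcnd2, the pore of the transient outward potassium current of mouse ventricle, stood at 13.7, 16.1, 16.9, 23.2 and 18.4 CPM against 36.5, 40.7, 41.7, 43.7 and 54 CPM (-1.29 ± 0.14, adjusted p = 1.25e-06). Kcnj12, an inward rectifier that sets the resting potential, was lower at -1.14 ± 0.15 and Hcn2, a pacemaker channel, at -0.94 ± 0.14. Kcnk3 (TASK-1), a background potassium channel, stood higher at 583, 527, 660, 422 and 577 CPM against 266, 369, 342, 330 and 382 CPM (0.71 ± 0.12, adjusted p = 0.000242). Kcnv2, a silent potassium channel subunit, was a case in which both group means lay below GFP, at 2.21, 5.42, 3.63, 4.82 and 3.81 CPM with ATF4, 1.45, 0.97, 0.964, 1.04 and 1.88 CPM with DDIT3 and 5.49, 4.69, 11.3, 6.05 and 8.84 CPM with GFP. It was higher with ATF4 than with DDIT3 by 1.64 ± 0.32 (adjusted p = 0.00082), and relative to GFP it stood at -0.87 ± 0.28 with ATF4 and -2.51 ± 0.32 with DDIT3 (adjusted p = 0.0239 and 0.000624).

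**Figure D5:**
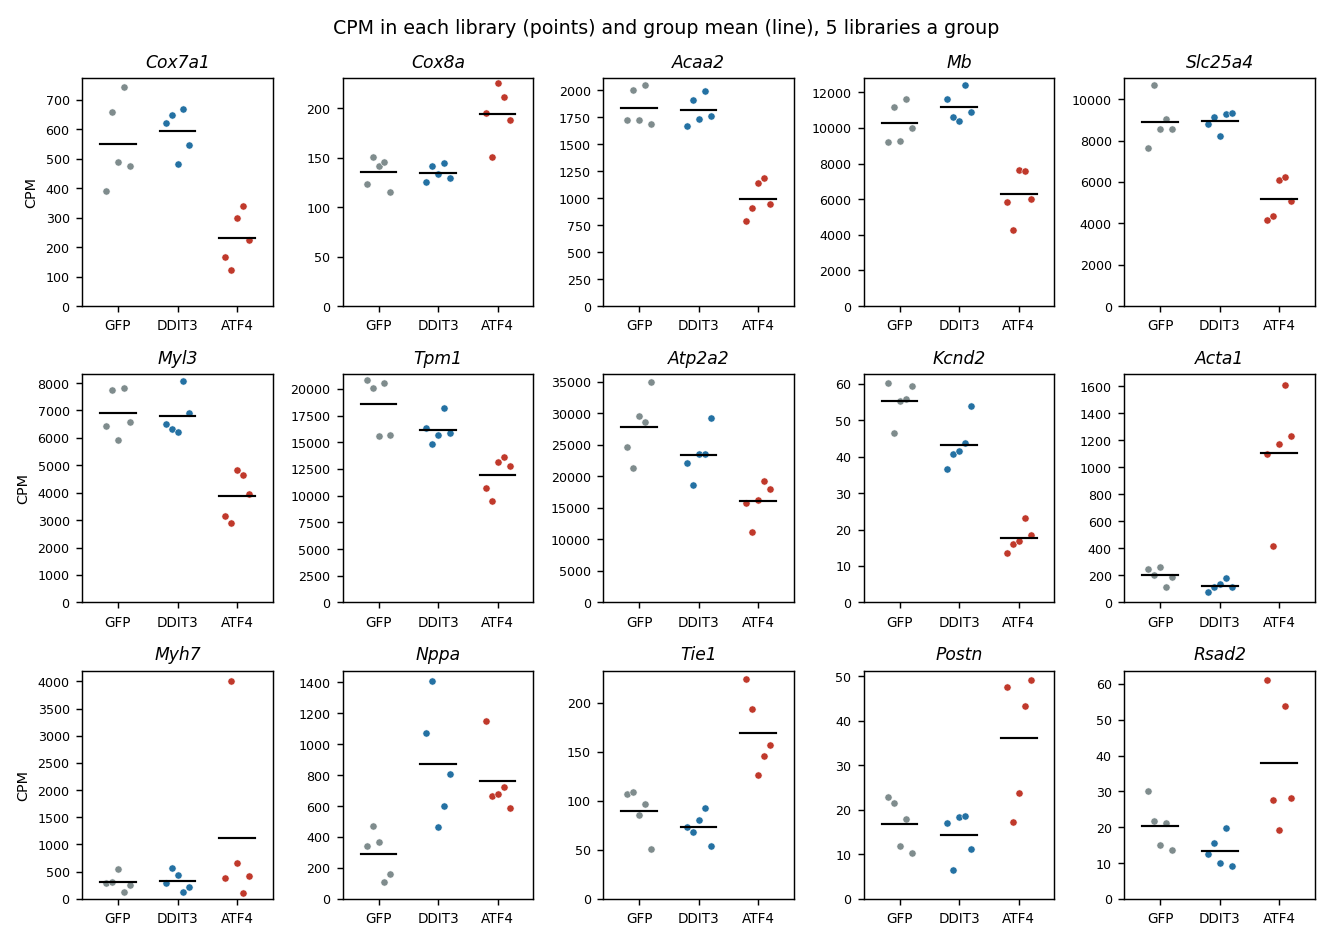
CPM of 15 genes of metabolism, contraction and other cell types (vertical axes, linear from 0) in the 5 libraries of the GFP, DDIT3 and ATF4 groups (horizontal axes), 1 point per library and a line at the group mean. Mb, Slc25a4, Acaa2 and Kcnd2 are lower in all ATF4 libraries, Cox8a, Acta1 and Tie1 are higher, and the Myh7 mean of the ATF4 group rests on 1 library at 4000 CPM.

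Sympathetic signalling to the heart acts through adrenergic receptors, G proteins and adenylyl cyclase. Of 27 such genes 10 were called lower in the ATF4 group and 6 higher (median -0.0809). Adcy5, a main cardiac cyclase, stood at 47.2, 51.2, 52.1, 46.4 and 45 CPM against 71.7, 73, 81.3, 87.3 and 123 CPM (-0.85 ± 0.14, adjusted p = 0.000107). Grk5, the kinase that silences beta receptors, stood at 29.9, 24.3, 19.7, 21.4 and 23.8 CPM against 10.2, 10.7, 7.59, 7.67 and 7.8 CPM with a GFP mean of 5.32 ± 1.25 CPM (1.44 ± 0.17, adjusted p = 3.12e-06). Dbh, which turns dopamine into noradrenaline, was lower at 0.52, 1.61, 0.672, 0.709 and 0.634 CPM against 7.62, 2.63, 5.42, 4.29 and 5.52 CPM (-2.62 ± 0.33). Gng7, a G protein gamma subunit, had the steepest fold of the list and is described with the genes raised by DDIT3.

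Fetal and stress-induced cardiac genes were partly higher with ATF4. Of 20 tested, 8 were called higher and 1 lower (median 0.306). Acta1, skeletal actin, stood at 1100, 415, 1170, 1610 and 1230 CPM against 73.7, 116, 134, 184 and 117 CPM (3.15 ± 0.33, adjusted p = 2.3e-06), the lowest ATF4 value being in replicate 2. Fhl1, a LIM protein of stretched muscle, stood at 690, 411, 494, 530 and 788 CPM against 129, 98.2, 135, 105 and 161 CPM (2.21 ± 0.20), and Tgfb2, a growth factor, was higher by 1.80 ± 0.20. Uchl1, a deubiquitinase, was ordered GFP, DDIT3, ATF4 with no overlap, at 6.43, 5.08, 5.2, 6.97 and 4.42 CPM, 16.9, 16.5, 13.7, 13.8 and 14.3 CPM and 133, 109, 125, 126 and 106 CPM (2.99 ± 0.12, adjusted p = 1.39e-12, and DDIT3 against GFP 1.41 ± 0.13, adjusted p = 2.62e-05). Tnnt1 was the member called lower (-0.88 ± 0.16), or 3 members without DDIT3 replicate 4 and 2 without DDIT3 replicate 3.

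The classical markers of this program did not part the 2 factors. Nppa, the atrial natriuretic peptide, stood at 1150, 666, 676, 724 and 585 CPM with ATF4 and 1070, 1410, 467, 598 and 807 CPM with DDIT3 (-0.20 ± 0.36, 95% interval -0.96 to 0.57, adjusted p = 0.711). Relative to GFP, at 339, 469, 368, 110 and 161 CPM, it stood at 1.39 ± 0.37 with ATF4 (adjusted p = 0.00853) and 1.59 ± 0.37 with DDIT3 (adjusted p = 0.0566). Nppb differed between the factors by 0.08 ± 0.28 (95% interval -0.52 to 0.68, adjusted p = 0.859). The sign of both differences turned without DDIT3 replicate 2, among other libraries for Nppb. Myh7, the fetal heavy chain, stood at 375, 4000, 665, 103 and 424 CPM against 287, 562, 430, 128 and 218 CPM (1.78 ± 0.80, adjusted p = 0.104). Its mean was carried by ATF4 replicate 2, and it was called only without ATF4 replicate 4. Of 24 cardiac transcription factors and metabolic regulators 5 were called lower and 1 higher (median -0.291), where all genes tested had 16% lower. With the replicate block 9 were lower and 2 higher, beside 2600 lower and 2628 higher of 11814 genes tested. Without ATF4 replicate 2, 8 were lower, beside 1780 of 11904 genes tested. Rxrg, a retinoid receptor, led those lower at 41.2, 44.7, 89.6, 68.6 and 71.9 CPM against 152, 144, 154, 155 and 163 CPM (-1.28 ± 0.16, adjusted p = 9.43e-06), and Esrrg, an orphan receptor of oxidative metabolism, was the one higher (0.71 ± 0.13).

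The genes higher with DDIT3 were fewer and shallower. Of the 5 genes called at least 16-fold lower in the ATF4 group, only Ddit3 is among the genes named here. In naming, provisional, date-like and sex-linked symbols were passed over. After Ddit3, the largest fold of the remaining genes of at least 5 CPM and without overlap was that of Acsl6 (chromosome 11, 54303798 to 54364756), which activates long-chain fatty acids. It stood at 15.8, 15.4, 14.7, 10.3 and 14.4 CPM with DDIT3 and 1.04, 1.9, 1.07, 1.56 and 2.41 CPM with ATF4 (-3.13 ± 0.23, adjusted p = 8.38e-09). The GFP libraries lay between, at 7.77, 6.77, 4.74, 8.55 and 7.1 CPM, so that ATF4 was below GFP (-2.12 ± 0.24, adjusted p = 2.46e-06) and DDIT3 above it (1.01 ± 0.20, adjusted p = 0.0197). Pdzd3, a scaffold with PDZ domains, had the same order, at 14.1, 13.7, 12.8, 21.6 and 12 CPM with DDIT3, 5.36, 6.64, 4.74, 6.97 and 6 CPM with GFP and 2.08, 0.586, 3.22, 1.98 and 2.41 CPM with ATF4 (-2.83 ± 0.27). Enho, which encodes the peptide adropin, stood at 19, 19.9, 19.8, 18.2 and 16.4 CPM with DDIT3 and 4.42, 3.66, 4.84, 3.26 and 3.81 CPM with ATF4 (-2.22 ± 0.21), and relative to GFP at 0.96 ± 0.19 with DDIT3 and -1.26 ± 0.21 with ATF4 (adjusted p = 0.0222 and 0.000198). Stard10, a lipid transfer protein, did the same at 35.4, 28.3, 22.8, 24 and 22.1 CPM, 12.7, 13.7, 14.5, 13.7 and 13.7 CPM and 6.76, 8.64, 5.78, 8.36 and 7.36 CPM for DDIT3, GFP and ATF4 (-1.84 ± 0.15, adjusted p = 3.28e-08). In these 4 genes both factors differed from GFP at an adjusted p below 0.05, in opposite directions.

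In other genes DDIT3 alone, or DDIT3 more than ATF4, stood above GFP. Gng7 (chromosome 10, 80948624 to 81014945) stood at 7.01, 2.91, 6.02, 4.81 and 3.5 CPM with DDIT3, 0.52, 0.293, 1.07, 0.284 and 0.634 CPM with ATF4 and 1.21, 0.781, 0.459, 0.789 and 1.1 CPM with GFP (-3.06 ± 0.37 between the factors, adjusted p = 4.88e-06). Its difference from GFP was 2.46 ± 0.35 with DDIT3 (adjusted p = 0.00122) and -0.60 ± 0.44 with ATF4 (adjusted p = 0.318). Syt3, a calcium sensor of vesicle fusion, stood at 14.4, 13.6, 15.9, 13.4 and 11.3 CPM with DDIT3 and 2.47, 3.66, 5.91, 4.68 and 3.42 CPM with ATF4 (-1.77 ± 0.20, adjusted p = 2.45e-06), beside a GFP mean of 5.16 ± 0.848 CPM (1.41 ± 0.20 with DDIT3 against GFP, adjusted p = 0.00115, and -0.35 ± 0.21 with ATF4, adjusted p = 0.216). Slc17a7 (VGLUT1), which loads vesicles with glutamate, was ordered GFP, ATF4, DDIT3 by its means, at 60, 41.7, 58.9, 66 and 51.9 CPM against 24.1, 11.7, 31.7, 29.1 and 23.7 CPM with ATF4 and 15, 7.55, 13.6, 13.7 and 12 CPM with GFP (-1.21 ± 0.22, adjusted p = 0.000314). Against GFP it stood at 2.17 ± 0.23 with DDIT3 (adjusted p = 7.5e-05) and 0.96 ± 0.23 with ATF4 (adjusted p = 0.00338). Of 13 tested genes of synaptic vesicles and regulated secretion 4 were called lower in the ATF4 group and 0 higher (median -0.220, with 1 higher under the block and without ATF4 replicate 4 or DDIT3 replicate 2), the other 2 being Syt7 (-1.61 ± 0.19) and Rab3a (-0.95 ± 0.16).

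Cidea, a lipid droplet protein of brown fat and heart, had means above GFP with both factors (0.75 ± 0.10 with DDIT3, adjusted p = 0.00112, and 0.43 ± 0.10 with ATF4, adjusted p = 0.00383), at 70.1, 53.9, 49.3, 56.8 and 53.1 CPM with DDIT3 and 39.7, 42.8, 49, 48.2 and 47.6 CPM with ATF4 beside a GFP mean of 33.6 ± 1.04 CPM (-0.32 ± 0.10, adjusted p = 0.0228). Its groups lay next to each other without overlap, and the call was lost in 5 of the 24 alternatives, among them without ATF4 replicate 1 or DDIT3 replicate 1. Others of the larger differences on this side were not called in DDIT3 against GFP. Pla2g5, a secreted phospholipase, stood at 78.1, 64.3, 76.1, 75.8 and 87.2 CPM with DDIT3, a GFP mean of 70.8 ± 4.01 CPM and 14.3, 9.22, 19.6, 24 and 18.5 CPM with ATF4 (-2.15 ± 0.18). Crhr2, the urocortin receptor of the heart, stood at 75.6, 88.1, 95.4, 57.3 and 60.5 CPM against 15.9, 12.9, 25.1, 18.3 and 15 CPM with ATF4 (-2.11 ± 0.19), beside a GFP mean of 63.3 ± 10.9 CPM. Pdzrn4 (-2.33 ± 0.30), Fndc4 (-2.27 ± 0.23), Ociad2 (-2.10 ± 0.22) and Ctf1, the cytokine cardiotrophin 1 (-2.005 ± 0.22), were lower with ATF4 without overlap, and none of the 4, nor Pla2g5 or Crhr2, was called in DDIT3 against GFP.

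Protein turnover and heat shock genes were called in shares near that of all genes tested (33.8%). Of 25 genes of autophagy, lysosome and ubiquitin ligases 7 were called higher and 3 lower (median -0.00357), the number lower being 5 under the replicate block and 1 when scaled by total counts or without ATF4 replicate 5 or DDIT3 replicate 4. Sqstm1 (p62), the receptor that carries cargo into autophagosomes, stood at 1080, 1130, 874, 878 and 910 CPM against 611, 671, 482, 493 and 481 CPM (0.83 ± 0.12, adjusted p = 2.71e-05), and the lysosomal protease Ctsd at 2320, 1670, 2370, 2620 and 2380 CPM against 1240, 1460, 1350, 1420 and 1540 CPM (0.70 ± 0.11). Trim63 (MuRF1), a ligase of muscle wasting, was called lower at -0.50 ± 0.16 (adjusted p = 0.0245) with overlapping groups, a call lost without ATF4 replicate 5, DDIT3 replicate 2 or DDIT3 replicate 4. Of 19 heat shock proteins 6 were called higher and 1 lower (median 0.340), the largest fold among those called being Hsp90aa1 at 0.83 ± 0.15. The 1 lower, Dnajb4 (-0.34 ± 0.13, adjusted p = 0.0451), lost its call in 14 of 24 alternatives, among them without ATF4 replicate 1, 2 or 3 or DDIT3 replicate 1, 3, 4 or 5.

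Among 18 cell cycle and MYC family genes 4 were called higher and 1 lower (median 0.775, with 10 higher under the replicate block and 8 higher without ATF4 replicate 2). Ccnd2, a cyclin that takes cells out of rest, stood at 1140, 963, 1120, 1150 and 997 CPM against 147, 122, 137, 188 and 129 CPM (2.89 ± 0.14, adjusted p = 2.1e-11). Myc, the growth regulator, stood at 42.5, 53.9, 22, 32.5 and 26.1 CPM against 1.33, 4.43, 1.81, 2.6 and 1.61 CPM (3.91 ± 0.38, adjusted p = 5.01e-07). Cenpf, of dividing cells, was the member called lower (-0.74 ± 0.28, adjusted p = 0.046), with overlapping groups, and was called in 8 of the 24 alternatives. Of 18 interferon-stimulated genes 10 were called higher and 0 lower (median 0.886, with 15 higher under the block and 6 without DDIT3 replicate 3 or DDIT3 replicate 5). Rsad2 (viperin) stood at 61.1, 27.5, 19.3, 53.9 and 28.2 CPM against 12.5, 15.7, 9.88, 19.8 and 9.15 CPM (1.51 ± 0.31) with overlapping groups, and B2m, of class I antigen presentation, at 115, 159, 97, 130 and 150 CPM against 53.2, 60.3, 53.9, 58.2 and 46.4 CPM (1.26 ± 0.31, adjusted p = 0.00585) without overlap. In DDIT3 against GFP the interferon list had a median of -0.201 and in ATF4 against GFP of 0.647. Of 15 immediate early genes 1, Arc, was called higher (2.44 ± 0.37, adjusted p = 6.64e-05), or 5 with the replicate block and 4 without DDIT3 replicate 3. Endothelial marker sums were higher in the same ATF4 libraries (1397 to 2032 CPM against 600 to 1046 CPM), and their part in the cell cycle and interferon results was not tested.

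Endothelial markers were on the ATF4 side, while markers of other cell types were less clear. Of 14 endothelial markers 13 were called higher and 0 lower (median 1.13). In 13 of them every ATF4 library lay above every DDIT3 library, as in 12.3% of all genes tested. Tie1, a receptor of blood vessel lining, stood at 224, 194, 126, 146 and 157 CPM against 73.6, 67.9, 80.1, 92.5 and 53.4 CPM (1.21 ± 0.20, adjusted p = 0.000148) and Eng, endoglin, at 143, 146, 126, 138 and 155 CPM against 62, 53.5, 77, 75.6 and 60.1 CPM (1.11 ± 0.17). Relative to GFP the endothelial median was 0.868 with ATF4 and -0.277 with DDIT3. Of 10 pericyte and smooth muscle markers 5 were called higher and 0 lower (median 0.671). Among them were Cspg4 at 1.18 ± 0.17, Notch3 at 1.32, Pdgfrb at 1.21 and Rgs5 at 0.85. The summed level of 11 such genes overlapped (3710 to 4590 CPM against 3707 to 4338 CPM). Each marker just named stood at 132 CPM or less in every ATF4 and DDIT3 library, a small part of that sum. The sum also holds Des, the desmin of muscle cells, so it says little of pericytes. Of 12 fibroblast markers 5 were called higher and 1 lower (median 0.784), but 1 higher without ATF4 replicate 1 or DDIT3 replicate 5 and 3 higher without ATF4 replicate 4, ATF4 replicate 5 or DDIT3 replicate 2, and the sums over 13 genes overlapped at 475.6 to 1052 CPM against 337.1 to 654.1 CPM. Postn, periostin, stood at 47.6, 17.3, 23.8, 43.2 and 49.1 CPM against 17, 6.51, 18.3, 18.5 and 11.3 CPM (1.33 ± 0.32, adjusted p = 0.00429), and Fbln1, fibulin 1, was lowest with ATF4 at 20.9, 22.1, 18.4, 24.7 and 21.8 CPM, against 40.9, 49.7, 44.7, 46.5 and 33.9 CPM with DDIT3 and a GFP mean of 79.7 ± 16.2 CPM (-0.999 ± 0.14).

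Of 6 leukocyte markers tested 0 were called, with Csf1r at 0.18 ± 0.30 (adjusted p = 0.686). With edgeR 0 of the 6 had an unadjusted p below 0.05, and with DESeq2 0 were called. The sums over the 9 leukocyte markers measured were 11.27 to 27.18 CPM with ATF4 and 13.99 to 23.49 CPM with DDIT3, with Cd3e, of T cells, at 0 in the ATF4 group. Of 3 red cell markers measured, the near-identical Hba-a1 and Hba-a2 had no count, and the sums, all from Alas2, of haem synthesis, were 0.2601 to 1.134 CPM with ATF4 and 0.1385 to 0.6498 CPM with DDIT3. Of 9 atrial markers 4 were called lower and 0 higher (median -0.763, with 2 lower when scaled by total counts or without ATF4 replicate 4), namely Sln, Kcnj3 (-1.09 ± 0.18), Stard10 and Tbx5 (-0.64 ± 0.20), and the sums over 11 genes overlapped (644.4 to 1201 CPM against 565.5 to 1543 CPM). Of the 10 cardiomyocyte markers of the ventricular list, not all confined to the ventricle, 4 were called lower and 0 higher (median -0.257). All 10 had values in every library. The part of the endothelial, pericyte and cardiomyocyte marker levels in the differences between the 2 factors was not tested.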

How the data were processed

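Gene expression was measured by RNA-seq in 15 libraries, 5 each of the ATF4, DDIT3 and GFP vectors, grouped by the labels' vector name. The authors deposited raw read counts for 23337 genes with a gene length in bases; per the submitters' processing notes, reads were handled with STAR, featureCounts, DESeq and DESeq2 on mm10, whose versions the notes do not state. Libraries came from SMART-Seq v4 and Nextera XT kits, per the labels' protocols, which do not mark strand, so overlapping, antisense and near-identical genes cannot be told apart; 1 GFP library is labelled with another SMART-Seq version than the others. Nothing in the labels says that libraries came from separate animals, so p-values reflect only how these samples spread, which may be technical.

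The counts were fitted with edgeR 4.0.16 in R 4.3.3 (TMM factors, filterByExpr, quasi-likelihood test with robust dispersion, 1 fit of all 15 libraries, 12 residual degrees of freedom), with Benjamini-Hochberg adjustment over all 11814 genes tested; 11523 genes were removed as low, of which 5744 had no count. An adjusted p below 0.05 is a call. SE is the log2 fold change divided by the root of F. CPM are over totals of all genes. The analysis was tested on simulated data. Counting intervals and floors of 3 counts cover counting error only. No 2 libraries agreed within sampling noise (chi-square per degree of freedom 8.6 to 50.4 within groups). The replicate numbers are shared between groups, and deviations of same-numbered ATF4 and DDIT3 libraries from their group means correlated at 0.135 to 0.497 in all 5 pairs. The highest was in the female pair numbered 2, and GFP was not part of these correlations. A fit of all 15 libraries with the number as a block is given where it changes a call, but the labels do not say what a number marks. By Xist and Y-linked transcripts, ATF4 2, DDIT3 2, GFP 4 and GFP 5 were female. Blocks 2, 4 and 5 thus held both sexes.

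The gene lists (38 lists, 811 genes, 743 of them tested, 20 in more than 1 list) and the members of the comparison were chosen with earlier results of these data known. The genes named are Atf4 and Ddit3; the 12 largest and 12 smallest fold changes among called genes of at least 5 CPM without overlap; the 6 largest rises and falls in CPM; up to 4 members of each list by lowest p and any member called against the rest of its list; and 20 stress and heart genes whatever their test. Passed over in naming were provisional symbols, which were not counted, the 25 date-like symbols of the count table, and Xist and Y-linked genes. Alternatives were RLE or total-count scaling, DESeq2 1.42.0, other filters on low counts, a fit of the 2 groups alone, the replicate block, each library left out in turn, and both libraries numbered 2 or, chosen after seeing the data, all 4 female libraries left out. Gene positions are GENCODE's for GRCm38, promoters RefSeq's for GRCm38.p6. Protein sequences and the deposited tables of comparisons were not used here.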

Additional observations from a re-analysis of the deposited data

Results flagged for a closer look

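Within the groups of 5, a library lay apart from the other 4 in 31 of 430 sets of values (215 genes in the ATF4 and DDIT3 groups). Its gap to the nearest was over 0.71 of the whole range. The 1 in 20 that independent normal values would give is no yardstick here. Genes of 1 library vary together, and some flagged genes had counts in 1 library only. ATF4 replicate 2 held 10 of them. It was high for Atf4 itself (537 CPM, the others 351 to 398), Atf3 (315 CPM, others 40.3 to 103), Myh7 (4000 CPM, others 103 to 665), the lipid droplet gene Plin3 (281 CPM, others 154 to 183) and Dbh (1.61 CPM, others 0.520 to 0.709). It was low for Asns (1330 CPM, others 1600 to 1700), Sars (446 CPM, others 482 to 494), Hmox1 (31.0 CPM, others 46.5 to 49.0), Pfkm (1160 CPM, others 1260 to 1290) and the interferon-stimulated Ifit3 (3.51 CPM, others 8.37 to 9.81). ATF4 replicate 1 was high for Slc6a9 (215 CPM, others 160 to 173) and Nppa (1150 CPM, others 585 to 724), and ATF4 replicate 3 was low for Flnc (432 CPM, others 619 to 667).

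DDIT3 replicate 5 held 6, all high: Ccng1 (1800 CPM, others 1060 to 1240), Srxn1 (37.3 CPM, others 29.6 to 31.3), Sdha (3710 CPM, others 2990 to 3090), Pfkp (203 CPM, others 147 to 163), the hexokinase Hk2 (288 CPM, others 142 to 178) and Kcnj12 (86.4 CPM, others 58.5 to 65.5). DDIT3 replicate 4 was low for Acsl6 (10.3 CPM, others 14.4 to 15.8) and high for Pdzd3 (21.6 CPM, others 12 to 14.1) and the ventricular light chain Myl2 (4500 CPM, others 3570 to 3750). It also held the only count of Cntnap3 (0.130 CPM) and of Adm2 (0.130 CPM) in its group. DDIT3 replicate 3 held the only counts of Slc7a3 (0.241 CPM) and Gjb2 (0.120 CPM), and was high for Phgdh (0.482 CPM, others 0.121 to 0.139) and Gadd45a (18.9 CPM, others 9.55 to 12.1). DDIT3 replicate 2 was low for Cars2 (55.1 CPM, others 64.2 to 66.6) and high for Gstm5 (78.7 CPM, others 68.2 to 69.5). DDIT3 replicate 1 was high for Sln (22.9 CPM, others 0.130 to 4.57).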

How the results depend on the processing

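The number of genes called in ATF4 against DDIT3 stayed between 3380 and 4096 when each library was left out in turn, and the number at least 2-fold apart between 1183 and 1471. For ATF4 against GFP the range was 3186 to 3854 and for DDIT3 against GFP 55 to 146. The count for ATF4 against DDIT3 was 4019 with RLE factors, 4301 with DESeq2, 3869 without a filter, 3525 with the stricter filter, 3703 from the 10 libraries alone and 3817 without all 4 female libraries. Calls in DDIT3 against GFP moved from 102 to 228 with DESeq2, to 65 with the stricter filter and to 322 with the replicate block, and the cause was not tested. With the replicate number as a block, 5228 genes were called in ATF4 against DDIT3 (2628 higher and 2600 lower). Among the 215 named genes the block added Hspa5, Hsp90b1, Ppp1r15a, Ier2 and Nr4a3, ended the call of Sln and changed no other call. ATF4 replicate 1 correlated best with DDIT3 replicate 2 (0.177) rather than with its own number (0.135).

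No called gene named here changed sign in an alternative. Of genes not called, the log2 fold change of Calr was 0.0249 under total counts. That of Atf3 was -0.0938 with the replicate block, -0.518 without both libraries numbered 2 and -0.520 without the 4 female libraries, and -0.705 to 0.358 when libraries were left out singly. Over the same single omissions Csf1r ran from -0.0272 (without ATF4 replicate 1) to 0.387, Nppb from -0.115 (without ATF4 replicate 4) to 0.348, Nppa from -0.393 to 0.0449 (without DDIT3 replicate 2) and Bcl2l11 from -0.524 to 0.212 (without DDIT3 replicate 2). Without both libraries numbered 2, Bcl2l11 was at 0.0579, Nppa at 0.0891 and Cd14 at 0.177; without the female libraries they were at 0.0557, 0.0871 and 0.175. The cause was not tested. With a median SE of 0.168 over genes tested, small log2 differences were not detectable.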
